A study of Homo sapiens with 197 samples.

Results

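The genes DAZL, DDX4, MAEL, ASZ1, RNF17, RBM46 and STK31 encode RNA-binding and piRNA pathway proteins that are normally made in germ cells. They were taken by name, and are 7 of the 42 tissue-restricted genes and of the 57 endogenous rows measured. All 7 probes carried RefSeq accessions that matched the gene of that name on GRCh38.p14. DAZL lies on chromosome 3, DDX4 on 5, MAEL on 1, RNF17 on 13, RBM46 on 4, and ASZ1 and STK31 on 7, so they do not form a cluster. The question put to them was the one the screen asked of all tissue-restricted genes, namely whether a single activated kinase can turn on genes that are normally silent in a somatic cell.

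The cells were IMR90, non-transformed human lung fibroblasts. Each well was infected with a retrovirus encoding 1 kinase activated by a myristoylation signal, and RNA was collected 4 days later. Of the 196 lanes analysed, all but 11 held a kinase, with 1 lane per kinase and a second one for PIK3CG and PTK2. The HK1 lane was left out. The control group comprised 3 lanes of 2 IMR90 samples, IMR90#1 and IMR90#2, that the labels call empty vector, whereas the study's text also speaks of cells without virus. SW39, a transformed line derived from IMR90, gave 2 samples, SW39#1 and SW39#2, and a pooled RNA from human cancer cell lines, among them a testicular embryonal carcinoma, gave 6 lanes that are repeats of 1 RNA. The labels name IMR90 as the cell line and a kinase retrovirus collection as the agent for all lanes alike. No gene that defines lung fibroblasts was among the rows, so this identity could not be checked. Nothing says whether the samples of a group came from separate cultures, so p-values measure the spread between these samples only, which may be technical.

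In Nanostring assays, barcoded probes bound to RNA are counted one by one without amplification. A kinase lane held between 29629 and 340763 counts over all probes (median 160138). The control lanes held 132257, 142255 and 152599, those of SW39 held 123789 and 142790, and the reference lanes lay between 108768 and 233536. A lane's negative-control level was defined as the mean + 2 SD of its 8 negative-control probes, which match no human RNA. This level was 17.1, 22.7 and 25.9 counts in the control lanes and had a median of 20.6 counts in kinase lanes. The rows are bulk RNA, in which fewer expressing cells and less RNA per cell cannot be told apart. Counts of different probes were not compared with each other, since their binding efficiencies are not known.

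In germ cells, piRNAs are small RNAs that guide PIWI proteins to transposon transcripts, and much of the machinery sits in cytoplasmic granules called nuage. DDX4, also known as VASA, is an RNA helicase of these granules, ASZ1 anchors piRNA factors at mitochondria, and MAEL takes part in piRNA production and transposon silencing. RNF17 and STK31 carry tudor domains, which bind methylated PIWI proteins. DAZL and RBM46 are RNA-binding proteins that act on germ cell transcripts before and during meiosis. In most somatic cells these genes are silent, and for several of them the silencing involves DNA methylation at CG-rich promoters.

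The upstream sequences of 3 of the genes are shown because their counts moved with other rows of the panel, as described further on. They are the 250 bases before the transcription start in RefSeq on GRCh38.p14, written 5′ to 3′ on the gene's strand, with each CG in capitals.
DAZL, chr3:16605424-16605673, minus strand: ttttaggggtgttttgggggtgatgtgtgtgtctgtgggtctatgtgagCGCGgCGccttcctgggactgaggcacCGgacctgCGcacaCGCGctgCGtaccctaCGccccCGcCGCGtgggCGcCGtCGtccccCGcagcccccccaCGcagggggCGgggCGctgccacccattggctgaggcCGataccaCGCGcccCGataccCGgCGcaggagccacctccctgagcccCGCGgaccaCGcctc
RBM46, chr4:154781022-154781271, plus strand: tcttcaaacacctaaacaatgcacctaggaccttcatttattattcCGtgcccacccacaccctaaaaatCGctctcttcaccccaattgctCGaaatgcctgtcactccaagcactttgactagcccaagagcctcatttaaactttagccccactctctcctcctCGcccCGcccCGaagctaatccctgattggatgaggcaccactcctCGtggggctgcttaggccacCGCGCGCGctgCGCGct
MAEL, chr1:166975332-166975581, plus strand: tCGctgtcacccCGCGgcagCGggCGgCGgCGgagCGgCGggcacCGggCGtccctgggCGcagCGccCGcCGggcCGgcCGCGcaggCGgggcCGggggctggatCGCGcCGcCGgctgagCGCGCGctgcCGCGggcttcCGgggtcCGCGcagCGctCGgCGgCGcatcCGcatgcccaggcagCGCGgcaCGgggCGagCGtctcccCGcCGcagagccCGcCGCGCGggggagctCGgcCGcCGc
These stretches contained 28 CG in DAZL, 13 in RBM46 and 51 in MAEL. Over the full table windows, which reach 50 bases past the start, the MAEL window at this start had 60 CG, more than 99.9% of the 35116 RefSeq promoters, whose median was 14. The other windows with a start within 300 bases of the gene's outer end had 29 CG (ASZ1), 28 (STK31), 33 (DAZL) and 19 and 30 (RBM46). The remaining windows lie inside the annotated gene, at inner starts, and had 29 CG in DAZL, 27 in MAEL, 20 in RNF17 and 1 in DDX4. The inner MAEL window had more CG than 71.8% of all promoters, and which MAEL start is used was not measured. For RNF17 and DDX4 the table held only an inner window, chr13:24763919-24764218 and chr5:55766635-55766934, while the genes begin at 24747767 and 55738061, so these counts do not describe their outer promoters. The E-box letters CACGTG, searched on both strands, were in a second DAZL window, the second MAEL window and the STK31 window, and in 7.26% of all promoters. The letters GCGGGAA, searched on both strands, were in the ASZ1 window and in 6.55% of all promoters. DNA methylation was not measured here, and the matches are descriptions only.

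In IMR90 controls, none of the 7 probes was counted above the negative-control level in every lane. DAZL gave 3 counts in IMR90#1 and 4 and 1 counts in the first and second lane of IMR90#2. RBM46 gave 2, 3 and 1 counts in the same order, and MAEL 3, 8 and 3. These 3 probes were thus at a few counts per lane.
DDX4 gave 10, 9 and 11 counts, ASZ1 10, 7 and 9, and STK31 8, 8 and 9. RNF17 gave 9 and 9 counts and then 18 in the second lane of IMR90#2, which was above that lane's level of 17.1. It was the 1 detection of any of the 7 genes in a control lane. The second lanes of IMR90#2, PIK3CG and PTK2 carry sample numbers that another lane also carries, and their identity is less certain than that of the first lanes.

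In the kinase lanes, the counts of the 7 genes were low as well. After scaling by the positive controls and by PGK1, TBP and TUBB2A, the normalized count of DAZL ranged from 0 to 30.8 over the kinase wells, with a median of 8.5. That of RBM46 ranged from 0.824 to 18.7 (median 5.18) and that of MAEL from 1.30 to 40.6 (median 10.2). DDX4 ranged from 4.38 to 29.2 (median 12) and ASZ1 from 3.79 to 37.4 (median 11.3). RNF17 ranged from 3.79 to 40.5 (median 14) and STK31 from 4.40 to 26.7 (median 12). MAEL was the most variable of them between wells, with an SD of 0.86 on the log2 scale, and STK31 the least, with 0.45.

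**Figure D1:**
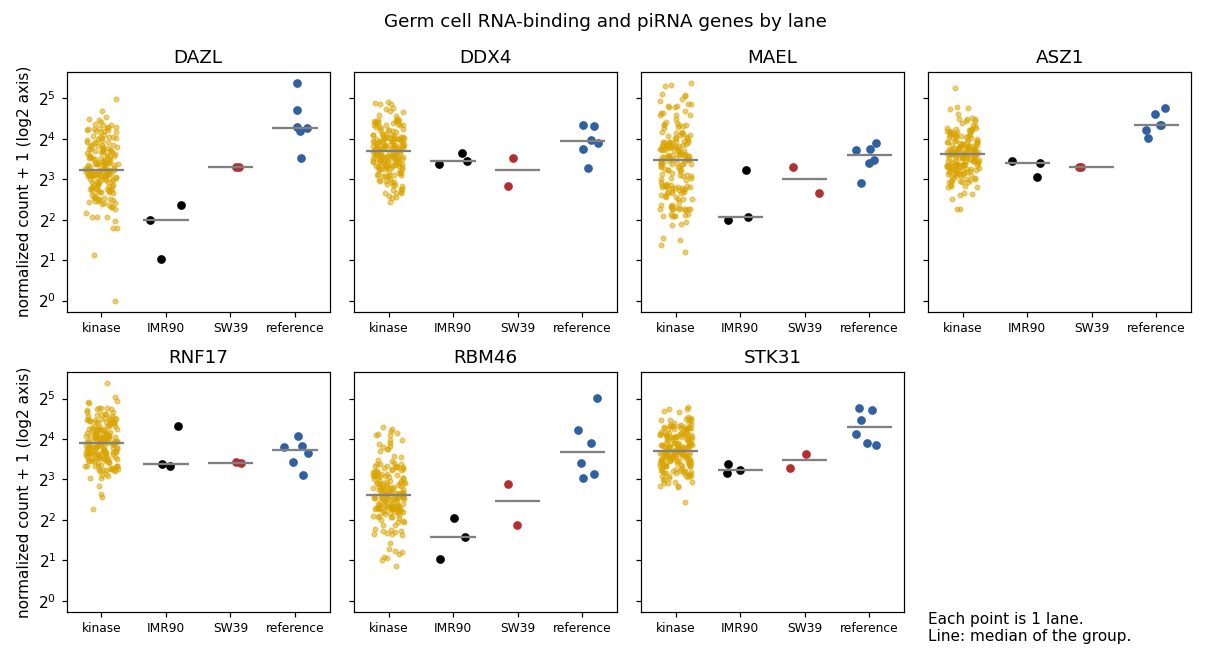
Normalized count + 1 on a log2 axis for the 7 genes in each lane (points) of the kinase, IMR90 control, SW39 and reference groups, with the group median as a line. Kinase lanes overlap the other groups for every gene, and the DAZL and RBM46 control lanes lie at the low end of the kinase lanes.

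Counts of the 7 genes seldom lay above the negative-control level. They were above it in 87 of 1295 pairs of gene and kinase lane, or 6.72%. Over all 42 tissue-restricted genes the share was 16.3%, and 9.91% without ALAS1, ATAD2 and ADAM12, the genes above the level in every control lane. When each negative-control probe was held out and set against the level of the other probes, these blanks were above it in 8.65% of 1480 pairs. Most of these came from NEG_E and NEG_F, and the other 6 blanks were above it in 19 of 1110 pairs, or 1.71%. The median gene of the 7 was above the level in 12 lanes and the median blank in 4. The shares are not fully alike, since a blank with high counts leaves a lower level when held out, while the genes were set against all 8 blanks.
By gene, the lanes above the level numbered 27 for RNF17, 20 for MAEL, 15 for DDX4, 12 for STK31, 10 for ASZ1 and 3 for DAZL. RBM46 was above it in 0 lanes. If the lanes were independent draws of 1 condition, this would allow a share of up to 1.62% (95% limit). They held different kinases, so the limit is only a rough guide. Among the blanks, NEG_F was above the level in 56 lanes, NEG_E in 53 and NEG_H in 11, so probes differed in their own background. In 68.6% of the kinase lanes no gene of the 7 was above the level, in 37 lanes 1 was, in 15 lanes 2 were and in 4 lanes 3 were.

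**Figure D2:**
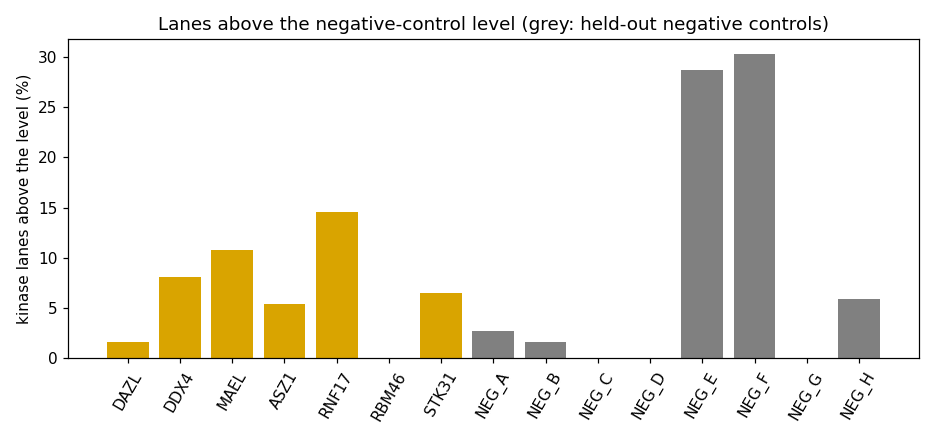
Share of the kinase lanes (%) in which each of the 7 genes (yellow) was above its lane's negative-control level, and in which each negative-control probe (grey), held out, was above the level of the other probes. RNF17 is highest of the genes at 14.6%, below NEG_E at 28.6% and NEG_F at 30.3%.

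In all, 2 lanes had 4 genes above the level, those of CDK4 and PRKCI, which were singled out after their values had been seen. CDK4 (cyclin-dependent kinase 4) gave 8 counts for DDX4, 8 for MAEL, 8 for ASZ1 and 9 for RNF17, against a level of 7.50. PRKCI (protein kinase C iota) gave 16 counts for DDX4, 14 for ASZ1, 17 for RNF17 and 20 for STK31, against a level of 12.2. Both had low negative-control means, 3.5 and 6.38 counts, and the part of that background in these detections was not tested.

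To compare each kinase with the rest, log2(normalized count + 1) was centred on its mean over all kinase and control wells and divided by its SD over them, which gave a Z-score per gene and well. Of the 1281 pairs of gene and kinase well, 2 had a Z-score above 2.5, or 0.156%, against 0.39% for the 42 tissue-restricted genes. In the other direction, 10 of the 1281 pairs were over 2.5 SD lower than the gene's mean, against 57 of 7686 for the 42 tissue-restricted genes. The count of 2 rose to 11 with the median and median absolute deviation, to 21 with a pseudocount of 10 and to 60 with counts floored at the level. With 1 lane per kinase these values have no replicate check.
ASZ1 in the PIP5K2A well had a Z-score of 3.36. It rested on 6 counts (exact Poisson 95% interval 2.20 to 13.1, counting error only), multiplied by a scaling factor of 6.24, in PIP5K2A's lane, which held 29629 counts over all probes, the fewest of any kinase lane. PIP5K2A is a phosphatidylinositol phosphate kinase. In the same well DAZL had a Z-score of 2.07 from 4 counts, RBM46 of 2.45 from 3 counts and STK31 of 2.12 from 4 counts, while RNF17 and MAEL were at −0.31 and −0.62. Under the other settings tried, the Z-score of ASZ1 there ran from −1.60 to 3.98 and stayed above 2.5 in 7 of 9.
RNF17 in the MAST1 well had a Z-score of 2.93 from 20 counts (interval 12.2 to 30.9), above the lane's level of 13.6. MAST1 is a microtubule-associated serine/threonine kinase. Here the Z-score ran from 1.98 to 3.37 over the other settings and stayed above 2.5 in 8 of 10. ASZ1 also was high in this well, with a Z-score of 2.36 from 13 counts, whereas RBM46 and STK31 were at −0.47 and −0.58.

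The wells in which the other genes were highest did not pass 2.5. DAZL was highest in PDIK1L (Z-score 2.49 from 12 counts, against a level of 13.2) and DDX4 in IHPK2 (2.31 from 16 counts, level 18.1), so neither highest value was above its lane's level. MAEL was highest in PIK4CA (2.30 from 36 counts, level 15.5), which was above it. STK31 was highest in PRKAG2 (2.32 from 17 counts, level 21.9) and RBM46 in PIP5K2A, both below the level, though above the negative-control mean of the lane (8.25 and 1.5 counts). In the MAP3K7 well, the kinase also called TAK1, the Z-scores of all 7 genes were below 0, from −1.96 for DDX4 to −0.67 for MAEL.

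Set against the IMR90 controls as a group, DAZL, RBM46 and MAEL had larger differences than the other 4 genes. The normalized count of DAZL was 3.0 and 2.27 in the control wells and had a geometric mean of 8.67 in the kinase wells, a log2 difference of 1.42, and 97.3% of kinase wells were above both controls. RBM46 was at 2.0 and 1.92 in the controls and 5.33 in the kinase wells, a log2 difference of 1.10, with 95.6% of wells above both. MAEL, at 3.0 and 5.25 against 9.59, differed by 1.08, with 80.3% of wells above both. STK31 differed by 0.50, RNF17 by 0.32, ASZ1 by 0.27 and DDX4 by 0.20. The share of wells above both controls was 83.1% for STK31, higher than for MAEL, 62.8% for DDX4, 61.2% for ASZ1 and 54.1% for RNF17. At these low counts the pseudocount set much of the size, and with a pseudocount of 10 the differences were 0.59 for DAZL, 0.52 for MAEL and 0.39 for RBM46. The order of the 3 was not stable, as MAEL was highest at 1.40 without IMR90#2.
None of the 7 passed the exact two-sided permutation test over all 17020 choices of 2 control wells, adjusted over the 57 rows. The p was 0.0102 for DAZL (adjusted p = 0.117) and 0.0227 for RBM46 (adjusted 0.181) in this permutation test. MAEL had a permutation p of 0.0766 (adjusted 0.321) and STK31 of 0.119 (adjusted 0.323). Of all 57 rows, 10 had an unadjusted p below 0.05, and 3, or 5.26%, passed after adjustment, namely ADCY10, ROPN1 and the row named ZBTB33. The median log2 difference of the 7 genes was 0.50, and that of the 42 tissue-restricted genes was also 0.50. Among the blanks, NEG_H was 0.70 and NEG_G 0.62 higher in kinase wells (permutation p of 0.339 and 0.287). With counts below the lane's negative-control level set to that level, the differences of all 7 genes were between −0.06 and −0.01, but nearly all values were then the level itself, so this setting mainly compares the levels of the groups.

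DAZL and RBM46 counts also followed the sample numbers in the labels. Over the 12 kinase lanes numbered 25 to 36, DAZL had a median of 21 counts (6 to 28), against 8 counts (0 to 23) over the 170 other kinase lanes that the labels do not mark as repeats. RBM46 had a median of 15 counts (3 to 23) there, against 5 counts (1 to 14). In no other run of 12 numbers did the median exceed 13 for DAZL or 8.5 for RBM46.
Most of the same lanes were set apart by blanks. NEG_H had a median of 55 counts in them and of 3 in the others, and NEG_G of 23.5 and 3. The median negative-control level was 52.6 counts there. The lanes numbered 25 to 35 carried this, with NEG_H between 44 and 71 counts, DAZL between 14 and 28 and RBM46 between 11 and 23. Lane 36, MPP1, did not share it, with 6 counts of NEG_H, 3 of NEG_G, 6 of DAZL and 3 of RBM46 and a level of 20.95. DDX4 (14 against 11), ASZ1 (13.5 against 10), RNF17 (14.5 against 12.5), STK31 (13.5 against 11) and MAEL (7.5 against 8.5) differed less. As a ratio of median counts, RBM46 ranked 3 and DAZL 4 of the 40 tissue-restricted genes for which a ratio was taken, with 3.0 and 2.63. What set these lanes apart was not tested, and the labels do not call the numbers a batch. This comparison was chosen after the values had been seen. Without these lanes, DAZL differed between kinase wells and controls by 1.36 on the log2 scale (adjusted p = 0.138, same permutation test) and RBM46 by 1.02 (adjusted 0.170).

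**Figure D3:**
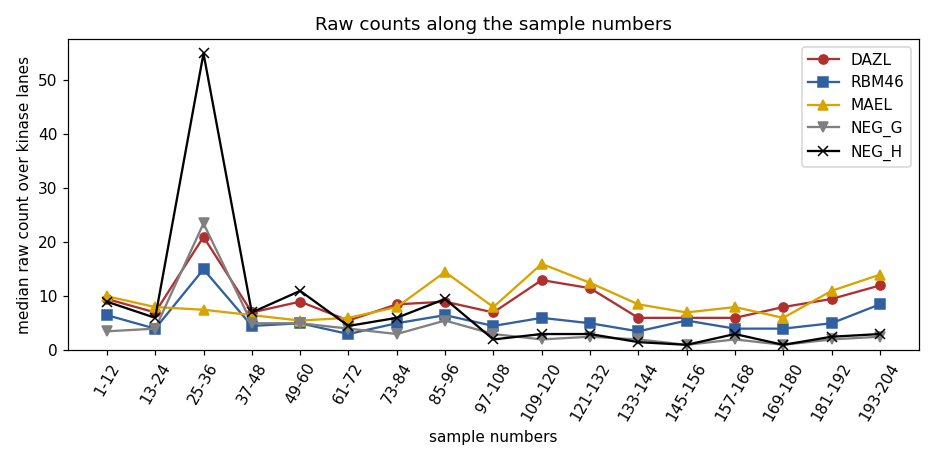
Median raw count over the kinase lanes in each run of 12 sample numbers, for DAZL, RBM46, MAEL and the negative-control probes NEG_G and NEG_H. In numbers 25 to 36, NEG_H reaches 55, NEG_G 23.5, DAZL 21 and RBM46 15, while MAEL stays at 7.5.

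MAEL varied along another row of the panel. The row that the files name ZBTB33 gave up to 116387 counts in a kinase lane, with a median of 20160 over these lanes, and 9, 18 and 13 counts in the control lanes. Each SW39 lane gave 8 counts of it. The panel also held a probe for the tag that all the viral kinases share, and a row called MyrFlag was above the negative-control level in every lane, with or without a kinase. It had medians of 646 counts in kinase lanes, 684 in control lanes, 3296 in SW39 and 2473 in the reference RNA. Cells without the kinase vectors lack this tag, and the study reports it for all kinases but not for uninfected IMR90 or SW39. Yet the row named MyrFlag gave 2946 and 3646 counts in SW39. Kinase lanes were set apart from all others by the row named ZBTB33 and not by the row named MyrFlag. The names of these rows may be exchanged in the files, in which case the row named ZBTB33 counts the vector's tag and not the endogenous gene. The files used here hold no probe sequences to settle it, and the names were kept as given.
Over all kinase lanes, MAEL and the row named ZBTB33 had a Pearson r of 0.80 on log2(raw count + 1) and a Spearman rho of 0.85. With the row named MyrFlag, the rho of MAEL was 0.24. Among the 42 genes, each set against this row, MAEL had the highest rho. The permutation p was 1e-05 for both, the smallest that 100000 permutations can give, and after adjustment over the 42 genes it was 3e-05 for r and 2.1e-05 for rho. For rho, all of the 42 genes but ATAD2, SSX2, BRDT and PRAME passed after adjustment, so passing alone did not set MAEL apart. Without the 2 lanes farthest from the median of the row, the r of MAEL was 0.81. Within runs of 12 sample numbers, rho was positive in 16 of 16 runs, with a median of 0.82. On normalized counts, which take out differences between lanes in the housekeeping genes, rho was 0.83.
The lanes with the most MAEL were HK2 with 44 counts, RPS6KL1 with 38, PIK4CA with 36, and AMHR2, PFKM and EPHA4 with 31 each. In the ZBTB33 row these 6 lanes ranked 2, 7, 4, 1, 6 and 3 among all kinase lanes. At the other end, TAOK3, TTK, CDK7, CHEK1 and RIOK3 had the fewest counts in that row, 659 or fewer, and gave 2, 5, 2, 3 and 4 counts of MAEL.
The 20 lanes with MAEL above the negative-control level had a median of 57748.5 counts in the ZBTB33 row, against 18026 in the other kinase lanes. The other genes followed this row less closely, with rho of 0.47 for DAZL, 0.39 for RBM46, 0.28 for RNF17, 0.23 for STK31, 0.22 for ASZ1 and 0.20 for DDX4. PIWIL1, a PIWI protein that binds piRNAs and the gene whose normalized counts were most like those of MAEL over the kinase and control wells (rho 0.75), had a rho of 0.75 with the ZBTB33 row as well. The relation was found by looking at the values, and its source was not tested.

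**Figure D4:**
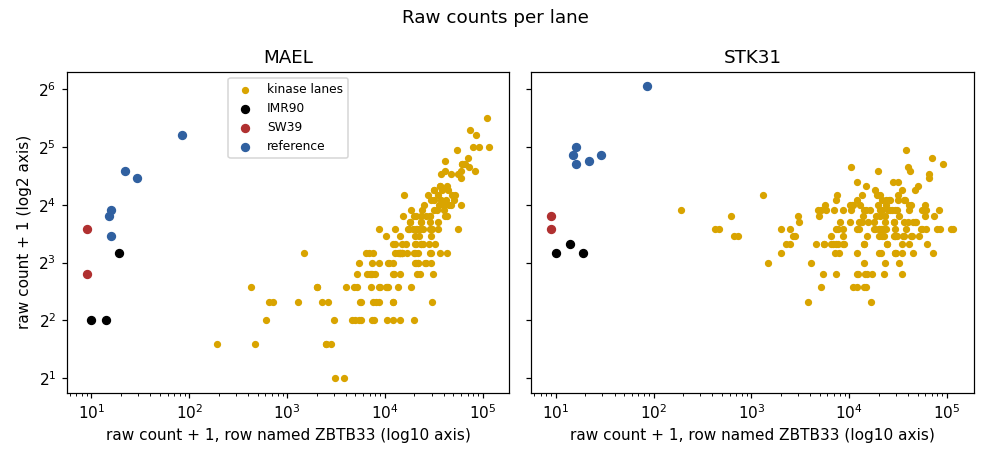
Raw count + 1 of MAEL (left) and STK31 (right), on a log2 axis, against raw count + 1 of the row named ZBTB33, on a log10 axis, in each lane of the kinase, IMR90 control, SW39 and reference groups. MAEL rises along the kinase lanes (rho 0.85), and STK31 much less (rho 0.23).

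The other most alike pairs, by Spearman rho of log2 normalized counts over the same wells, were weaker. RBM46 was most like DAZL (0.52), and DAZL most like TPTE (0.62), a testis-expressed phosphatase relative. DDX4 was most like MAGEA4 (0.63), RNF17 and STK31 both most like PLCZ1 (0.67 and 0.58), the sperm phospholipase C, and ASZ1 most like RNF17 (0.53). All genes of a well were multiplied by that well's 1 scaling factor. With this factor, which differed between wells, rho was 0.40 for DDX4, 0.37 for STK31, 0.27 for ASZ1, 0.24 for RNF17, 0.16 for MAEL, 0.11 for DAZL and 0.02 for RBM46.

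In SW39, only DAZL among the 7 passed the test against the IMR90 controls, at counts near the mean of the negative controls. SW39#1 and SW39#2 gave 10 and 11 counts of DAZL, against 3, 4 and 1 in the control lanes, so the groups did not overlap. The negative controls of these lanes had means of 9.75 and 10.75 counts and levels of 17.7 and 22.3. The log2 fold change was 1.64 (SE 0.47, n = 2 and 2), with an adjusted p of 0.0164 in edgeR's quasi-likelihood test over the 57 rows. In this test 8 rows, or 14%, were higher in SW39 and 5, or 8.77%, lower.
Of 13 other settings that tested DAZL, 7 kept its call, among them limma (1.42, adjusted p = 0.00761), 4 housekeeping genes (1.82, edgeR adjusted p = 0.00661), TMM factors (1.44, 0.0391) and positive controls only (2.36, 9.42e-05). A further setting, the filter at 20 counts, left DAZL out of the fit. With 1 of the 4 samples left out, its fold change was between 1.52 and 1.71 and was not called (edgeR adjusted p from 0.0649 to 0.223), in fits where the lone sample of a group is assumed to vary like the other group. The call did not hold either with DESeq2 (1.67, adjusted p = 0.0552), or with the first lane only of IMR90#2 (1.27, adjusted p = 0.177 in edgeR). When lanes were scaled on the positive controls only, which raised the median log2 fold change of all 57 rows from 0.12 to 0.85, MAEL (1.29, edgeR adjusted p = 0.0293), RBM46 (1.84, 0.0200) and STK31 (0.95, 0.0436) were called as well. Under this scaling 28 of the 57 rows were called. Fitted with the endogenous rows, the blank NEG_G had a fold change as large as that of DAZL. It gave 6 and 8 counts in SW39 and 3, 1 and 1 in the control lanes, a log2 fold change of 1.72 (SE 0.50, edgeR adjusted p = 0.0530).
RBM46 gave 3 and 8 counts in SW39#1 and SW39#2, against 2, 3 and 1 in the control lanes, with a log2 fold change of 1.12 (SE 0.55, edgeR adjusted p = 0.329). MAEL gave 6 and 11 counts (log2 fold change 0.56, SE 0.44) and STK31 13 and 11 (0.23, SE 0.36). Values for ASZ1, 10 and 11 counts, for DDX4, 7 and 13, and for RNF17, 11 and 12, overlapped those of the controls, with log2 fold changes of −0.02, −0.30 and −0.35. None of the 7 genes was above the negative-control level in an SW39 lane. Their median log2 fold change was 0.23, against 0.12 for the 42 tissue-restricted genes.

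**Figure D5:**
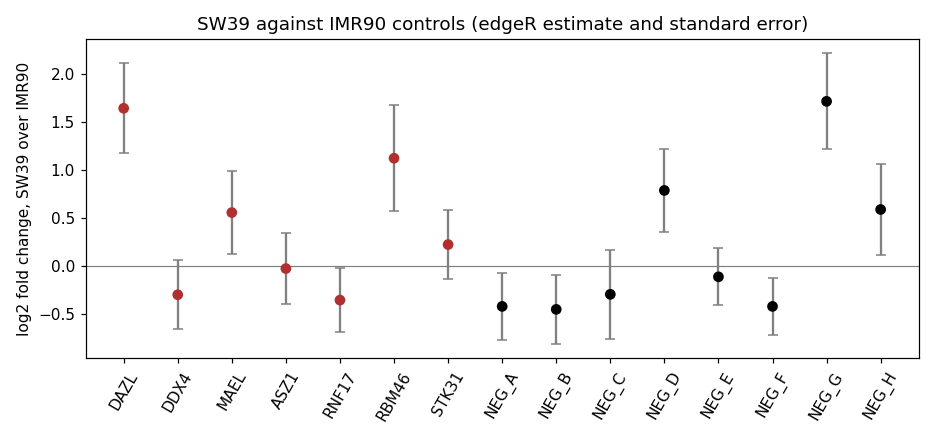
Log2 fold change of SW39 over IMR90 controls (points) with its standard error (bars) from edgeR, for the 7 genes (red) and the 8 negative-control probes (black). DAZL at 1.64 and the negative control NEG_G at 1.72 lie side by side.

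The reference RNA was used to see whether the probes gave more counts in another RNA. Its content of each transcript is not known, so a low count cannot tell a failing probe from an absent transcript. DAZL gave 32, 38, 16, 27 and 27 counts in lanes 2 to 6 and was highest in lane 1, with a normalized count of 40.8 against 10.5 to 25.1 in the others. It was above the negative-control level in lanes 1 and 3. RBM46 gave 81, 33, 16, 11, 14 and 15 counts, above it in lanes 1 and 2. Lane 1 was highest for both genes, and also held 80 counts of NEG_H and 35 of NEG_G.
ASZ1 gave 60, 28, 40, 27, 28 and 28 counts and RNF17 34, 14, 33, 15, 17 and 14, each above the level in lane 3 only. STK31 gave 65, 26, 28, 25, 31 and 28 counts. DDX4 gave 49, 27, 18, 19, 28 and 15, and MAEL 36, 23, 21, 10, 14 and 13, and these 3 were above the level in no lane. In all, 6 of the 42 pairs of one of the 7 genes and a reference lane were above it, while over the 42 tissue-restricted genes 46% of such pairs were. Among the held-out blanks, NEG_E was above the level of the other probes in 5 of 6 reference lanes and NEG_H in 1 of 6. Every other blank was above it in 0 of 6, so blanks also gave detections here.
As a ratio of geometric means of normalized count + 1 over the IMR90 controls, the reference was at 5.81 for DAZL, 4.66 for RBM46, 2.30 for MAEL, 2.09 for STK31, 2.05 for ASZ1, 1.35 for DDX4 and 1.05 for RNF17. Thus 5 of the 7 were at 2-fold or more, against 78.6% of the 42 tissue-restricted genes. Without lane 1 it was 3 of the 7, with DAZL at 5.07, RBM46 at 3.93 and MAEL at 2.19. Among the blanks, NEG_D was at 2.02, NEG_G at 1.87 and NEG_H at 1.83. The 6 lanes are repeats of 1 RNA, so no test was made. With scaling on the positive controls only, all 7 ratios were at 2-fold or more, from 2.07 for RNF17 and 2.69 for DDX4 to 8.73 for RBM46 and 11.2 for DAZL. In contrast, with a pseudocount of 10 only DAZL was, at 2.39, while RBM46 was at 1.95 and MAEL at 1.45. With counts floored at the level none was, with DAZL at 1.09 and RBM46 at 1.01. DDX4, MAEL and STK31 were above the level in no SW39 or reference lane. Their reference counts were above the lane's negative-control mean in 6, 5 and 6 of the 6 lanes, and those of STK31 were above all control lanes in 6 of 6 after normalization.

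Of 43 other germ cell genes listed, 8 were on the panel. They were PIWIL1, the helicase DDX53, the meiotic chromosome proteins HORMAD1 and SPATA22, the CTCF relative CTCFL, the testis bromodomain protein BRDT, TSPYL6 and FMR1NB. Between kinase wells and controls 0 of the 8 passed the permutation test, where 5.26% of all rows did. The differences ranged from −0.01 for BRDT to 0.59 for DDX53 on the log2 scale. In SW39 0 were higher and 1 was lower, FMR1NB, with a log2 fold change of −1.01 (SE 0.32, edgeR adjusted p = 0.0290), where 8.77% of all rows were lower. The call held with limma (adjusted p = 0.00324) and, in edgeR, with TMM factors, the replicate block or the negative controls added. It was lost with DESeq2 (adjusted p = 0.130). In edgeR it was lost with 4 housekeeping genes (0.126), positive controls only (0.555) and the first lane only of IMR90#2 (0.290). Adjustment over the tissue-restricted rows (0.0640) and a filter at 20 counts (0.0623) lost it too. The log2 fold change of FMR1NB was −0.75 without IMR90#1 and −1.38 without IMR90#2. In the reference RNA 6 of the 8 were at 2-fold or more, a share near the 78.6% of the 42 tissue-restricted genes. CTCFL was at 20.7-fold and HORMAD1 at 4.05-fold, and both were above the negative-control level in 6 of 6 lanes. None of the 7 genes was above it in more than 2 lanes.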

How the data were processed

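RNA was counted on a Nanostring nCounter system in 185 kinase lanes (183 kinases), 3 control lanes, 2 SW39 lanes and 6 reference lanes. Per the labels, RNA was kept on integrity and purity. The authors deposited the instrument's unscaled counts of every probe, 1 file for each lane. They also deposited 1 table of normalized signal for all lanes together, used here as an alternative only. Samples were grouped from titles and labels. The 7 genes, the lists and the tests were chosen with earlier results of these data known.

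Lanes were scaled on the 6 positive controls and then on PGK1, TBP and TUBB2A, as the methods describe. Geometric means were used each time, a choice that the methods do not state. Values were used as log2(normalized count + 1), and lanes of 1 name were averaged. Python 3.11.15 was used with numpy 2.4.6, scipy 1.17.1 and pandas 2.3.3. SW39 was tested on counts of the 57 endogenous rows in R 4.3.3 with edgeR 4.0.16 (quasi-likelihood test, housekeeping offset, lanes of 1 name summed). The alternatives were limma 3.58.1, DESeq2 1.42.0 and the settings listed in the closing section. The other comparisons used permutation tests or, with 1 lane per kinase or repeats of 1 RNA, no test. Adjustment was by the Benjamini-Hochberg method, with a threshold of 0.05. All 7 genes were named throughout, with the wells of their highest Z-scores and of any Z-score above 2.5. The total count per lane limits the precision, and intervals cover counting error only. The fits were tested on simulated data, but no outcome of that is given here. The HK1 lane was not analysed here, and promoter windows were read from a RefSeq table of GRCh38.p14.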

Additional observations from a re-analysis of the deposited data

How the results depend on the processing

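The 26 results were recomputed under alternative settings, which gave 264 further values. Of these 17 were reversed, 47 moved beyond the spread or by over 1.5 times, 6 lost and 3 gained significance. The others fell in none of these classes, but not all kept their side of 1 or of 2-fold. The reference ratio of RNF17 went from 1.05 to 0.870 without IMR90#1 and to 0.994 with the floor. Without IMR90#1 that of MAEL fell to 1.84 and that of STK31 to 1.99, and without IMR90#2 that of ASZ1 fell to 1.89. The 13 rows called in SW39 became 28 with positive controls only, 8 with a filter at 20 counts, 8 with the first lane of IMR90#2 only and 3 when adjusted over the tissue-restricted rows, where fewer genes were tested. They were 2 to 6 with 1 sample left out. With the replicate number as a block, 13 rows were called and DAZL stayed at 1.64 (edgeR adjusted p = 0.0168). The deviations of same-numbered samples had a correlation of 0.06. With only 2 pairs, this value cannot show whether the samples share more than a number. By sample number, IMR90#1 and SW39#1 (1 and 12) fall in the same run of 12. So do the first lane of IMR90#2 and SW39#2 (13 and 24). Among the genes, the SW39 log2 fold change of ASZ1 turned to 0.15 with 4 housekeeping genes, 0.70 with positive controls only and 0.020 with the first lane only, and ran from −0.18 to 0.067 with a sample left out. That of DDX4 turned to 0.43 with positive controls only and ran from −0.74 to 0.011 with a sample left out. That of RNF17 turned to 0.38 with positive controls only and 0.068 with the first lane only, and ran from −0.55 to 0.10 with a sample left out.

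The 3 rows called between kinase wells and controls became 1 with 4 housekeeping genes, with the authors' table, with a pseudocount of 10, with counts floored at the lane's negative-control level, with only rows of a median above 20 counts and without the second lanes. They were 0 with kinase wells of sample numbers 1 to 24 only and with 1 control left out, settings in which the smallest permutation p (0.00476 and 0.00543) is too large for a single row to pass the adjustment, so they say nothing about stability. The floor, which replaced nearly all values of the 7 genes by the level, gave log2 differences of −0.051 for DAZL, −0.039 for DDX4, −0.014 for MAEL, −0.041 for ASZ1, −0.037 for RNF17, −0.056 for RBM46 and −0.040 for STK31, and within sample numbers 1 to 24 that of DDX4 was −0.10. The 2 pairs with a Z-score above 2.5 became 4 with 4 housekeeping genes, 21 with a pseudocount of 10, 60 with the floor, 11 with the median and median absolute deviation, 6 with runs of 12 sample numbers centred and 4 without sample numbers 25 to 36. Genes below a lane's level share 1 value under the floor, so 1 lane can add several of the 60 pairs. The 87 detections became 25 at the mean + 3 SD. The 5 genes at 2-fold or more in the reference became 1 with a pseudocount of 10, 0 with the floor, 3 to 4 with a control left out and 3 without reference lane 1, and were 7 with positive controls only. The cause of the other changes was not tested. Leaving out sample numbers 25 to 36, reference lane 1 or the PIP5K2A lane, and adding the negative controls to the fit, were chosen after seeing the data.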

Other observations

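DAZL and RBM46 were not the only germ cell genes with higher counts in the kinase lanes numbered 25 to 36. Of the 40 tissue-restricted genes with a ratio of median counts between these lanes and the others, TPTE was highest at 3.5, followed by TSPYL6, a testis gene, at 3.29. BRDT was at 2.33 and ROPN1, a sperm tail protein, at 2.17. Of these, TPTE was the gene most like DAZL over wells, and ROPN1 was second for both DAZL and RBM46. The part of these lanes in that likeness was not tested.

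MAEL and PIWIL1 were not alone either in following the row named ZBTB33, which may count the vector's tag if the names of this row and of MyrFlag are exchanged. CTAG1B, which encodes the cancer-testis antigen NY-ESO-1, had a Spearman rho of 0.81 with it over all kinase lanes, and MAGEA12, another cancer-testis antigen, of 0.76. BRDT and PRAME were at 0.01 and −0.01. All 42 genes were set against the row, and the comparison was chosen after the values had been seen.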
